A study of Danio rerio with 12 samples.

Results

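The cytochrome P450 genes described here are the 85 rows, of 32057 in a zebrafish expression table, whose gene symbol begins with cyp and a digit. They carry 81 distinct symbols, because cyp2k6, cyp2x10.2, cyp2y3 and cyp3c3 each stand on 2 rows, which are told apart below by their Ensembl identifiers. Family 2 held 43 of the rows, families 3 and 27 held 5 each, families 1, 4 and 46 held 4 each, and the other 20 rows belonged to 11 families with 3 rows or fewer. A further 5 rows with a P450 description or another form of name, among them the thromboxane synthase tbxas1 and the prostacyclin synthase ptgis, did not match the symbol rule and are not counted. The gene cyp1c1 was not analysed here, since no row carries that symbol.

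Whole wild-type zebrafish embryos were exposed from 4 to 72 h post-fertilisation to methylmercury (MeHg), a neurotoxic form of mercury that builds up in fish, at 0, 6, 30 or 50 µg/L. Each of the 4 groups had 3 RNA-seq libraries, 12 in all, and the 0 µg/L embryos are the controls. Neither the number of embryos per sample nor the use of separate clutches is stated in the sources used here, so the p-values measure the spread between these samples, which may be technical. The submitters' stated aim was to find marker genes of MeHg toxicity, and the comparisons here ask which P450 genes moved with dose and which departed in 1 dose group alone.

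P450 enzymes are haem proteins that insert oxygen into small lipophilic molecules. Most members of families 1 to 4 oxidise foreign chemicals and fatty acids. Most of the other families make or break down bile acids, cholesterol, steroid hormones, retinoic acid and vitamin D. In fish embryos the xenobiotic families are expressed mainly in liver, gut and skin, and several lie in tandem arrays of close copies. The genes of the steroid and retinoid families mostly have narrow sites of expression, such as the interrenal gland or the hindbrain. Of the steroid subfamilies, cyp11a, cyp17a and cyp19a have 2 rows each.

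The libraries held between 15665053 and 22207603 counted reads, and levels below are FPKM values (read counts divided by exon length and by library size) after scaling by library composition, so they can be compared between genes and libraries. Control replicate 3 stood apart from the other controls over all genes (Spearman correlations of 0.907 and 0.928 with control replicates 1 and 2, against 0.984 between those). Within the 3 exposed groups these correlations ran from 0.984 to 0.988. Control replicate 3 was also low in P450 genes: the FPKM of all 85 members summed to 416, 396 and 279.9 FPKM at 0 µg/L, 278, 253 and 250.2 at 6, 316, 284 and 298 at 30, and 334, 335 and 351 at 50. Every exposed library thus lay below control replicates 1 and 2 in this sum, while those at 6 µg/L lay below and those at 30 and 50 µg/L above control replicate 3. Markers of liver, intestine, exocrine pancreas, photoreceptors, kidney, muscle, skin, blood and glia were all detected, as in whole embryos, and of the interrenal markers the receptor mc2r was at 0 in some libraries.

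Of the 85 members, 61 had a mean FPKM of at least 0.5 and were tested, 16 of them with a group mean below that level at 1 or more doses. For 7 of these (cyp11c1, cyp2ad2, cyp2x10.2 (ENSDARG00000006501), cyp2x9, cyp39a1, cyp3c3 (ENSDARG00000037874) and cyp46a1.4) the 9 libraries outside the highest group averaged under 0.5 FPKM. These 7 entered the test through the group in which they were high, so they had to differ. All 7 were called, and the counts below include them. The 24 untested members included 8 with at least 1 group mean of 0.5 or more. Each comparison used edgeR's quasi-likelihood test over all 19821 genes tested, with p-values adjusted over those genes by the Benjamini-Hochberg method, and a gene is called at an adjusted p below 0.05. The comparisons against control share the same 3 control libraries.

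More P450 genes were called lower than higher at every dose. At 6 µg/L 22 tested members were called (36.1%, against 14.4% of all tested genes): 4 rose and 18 fell, and over all tested genes 5.48% rose and 8.88% fell. At 30 µg/L 27 were called (44.3%, against 30.8%), of which 4 rose and 23 fell (13.4% and 17.3% of all tested genes). At 50 µg/L 28 were called (45.9%, against 39.5%), of which 5 rose and 23 fell (17.6% and 21.9%). The median log2 fold change of the tested members was -0.371, -0.509 and -0.17 at 6, 30 and 50 µg/L, beside -0.00473, -0.0362 and -0.0379 over all tested genes.

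This balance depends on the controls. Without control replicate 3, the counts were 5 higher and 33 lower at 6 µg/L, 6 higher and 32 lower at 30 µg/L, and 6 higher and 27 lower at 50 µg/L, while 56.5%, 61.8% and 62.8% of all tested genes were then called. With control replicate 3 as the only control they were 8 higher and 13 lower, 10 and 12, and 15 and 14, while 24.8%, 35.2% and 44.8% of all tested genes were called. Against control replicate 3 alone, rises and falls were thus near equal in number at 30 and 50 µg/L. Leaving out replicate 2 or 3 at 6 µg/L reduced the calls at 6 µg/L to 14, and those of all tested genes to 6.2% or 6.72%.

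Between neighbouring doses the calls went both ways. At 30 against 6 µg/L 15 members were called (24.6%, against 15.6% of all tested genes). Of these, 6 rose and 9 fell, where 7.13% and 8.44% of all tested genes did so. Scaling by library totals alone gave 5 and 12, while 19.5% of all tested genes were then called. At 50 against 30 µg/L 13 were called (21.3%, against 8.62%), of which 8 rose and 5 fell (4.18% and 4.44%). Leaving out control replicate 3 gave 14 rises and 12 falls for the first of these and 14 and 7 for the second, while the share called of all tested genes grew as well, to 36.1% and 24.9%. The first count dropped to 9 calls without replicate 2 at 6 µg/L or replicate 1 at 30 µg/L (9.86% and 8.87% of all tested genes). The second dropped to 8 without replicate 2 or 3 at 30 µg/L (4.72% and 4.79%). In all, 44 of the 61 tested members were called in at least 1 of the 5 comparisons, against 52.2% of all tested genes. Of the 61, 35 were lower and 7 higher than control at 1 or more doses (28.2% and 22.3% of all tested genes), with cyp2aa7 in both counts.

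**Figure D1:**
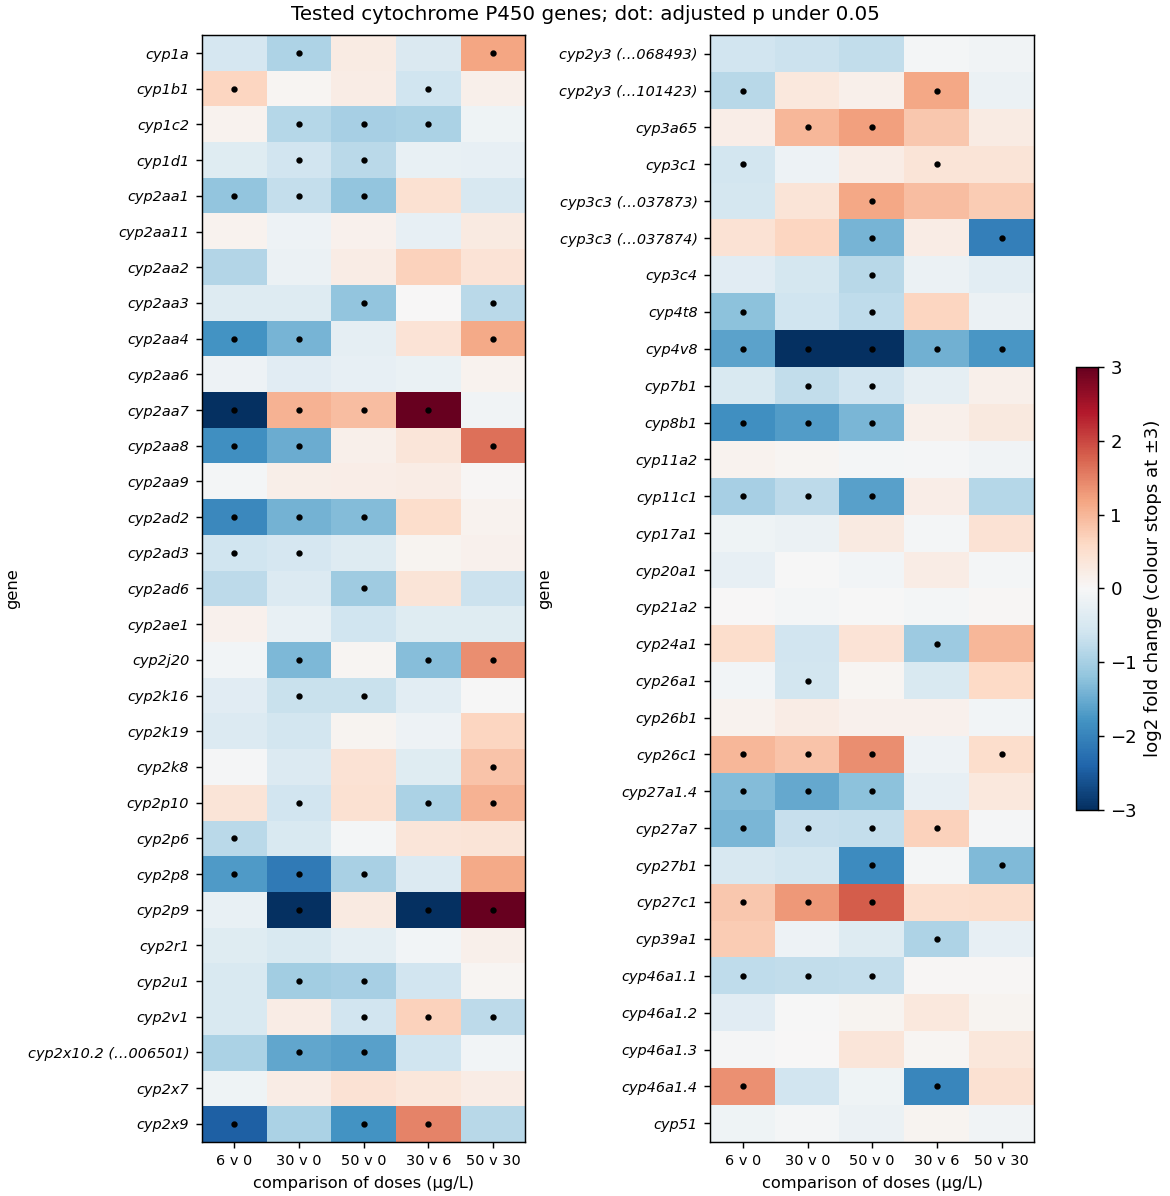
Fitted log2 fold change of the 61 tested P450 genes (rows) in the 3 comparisons with control and the 2 between neighbouring doses (columns); the colour scale stops at 3 in either direction, and a dot marks a call at an adjusted p below 0.05. The column of 50 against 30 µg/L holds 8 rises and 5 falls, while each of the columns against control holds more falls than rises.

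The members were sorted by the shape of their dose response. A steady change is a called linear trend over the dose in µg/L with the 4 group means in order, and a swing is a pair of neighbouring steps, both called, in opposite directions. Of the tested members 4 were steady (6.56%, against 16.3% of all tested genes), 11 had a swing (18%, against 5%), 29 had another called change (47.5%, against 32.3%) and 17 had none (27.9%, against 46.4%). Over the whole table the trend was called in 29.9% of genes and among the members in 13 of 61, 4 of them rising with dose and 9 falling (13.3% and 16.6% of all tested genes). Without control replicate 3 the counts were 6 steady members and 19 with a swing, which included all 11. The steps behind a swing were then called more often over the whole table too. Of all tested genes, 56.5% were called at 6 µg/L, 36.1% at 30 against 6 µg/L and 24.9% at 50 against 30 µg/L. Swings of all tested genes were not counted in that setting, so the 19 cannot be set against the 5% above. Leaving out 1 library at 6 µg/L cut the swings to 7, 5 or 6 (replicates 1, 2 and 3), leaving out replicate 3 at 30 µg/L cut them to 7, and leaving out replicate 2 at 30 µg/L raised the steady members to 8.

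The 4 steady genes were cyp4v8 and cyp1d1, which fell with dose, and cyp27c1 and cyp3a65, which rose. Over all tested genes 8.72% fell steadily and 7.54% rose steadily.

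The gene cyp4v8 (chr1:17900306-17912645 in GRCz11) is a fish relative of human CYP4V2, a fatty acid omega-hydroxylase whose loss causes a crystalline degeneration of the retina. It had 13.6, 10.7 and 9.06 FPKM at 0 µg/L, 4.22, 3.45 and 3.31 at 6, 1.07, 1.85 and 1.16 at 30, and 0.437, 0.395 and 0.368 at 50. No library of a higher dose reached the level of any library of a lower dose. The log2 fold change from control was -1.6 ± 0.20 at 6 µg/L, -3.04 ± 0.22 at 30 µg/L and -4.79 ± 0.25 at 50 µg/L (± standard error; edgeR adjusted p = 0.000384, 2.50e-06 and 8.37e-08). The steps between doses were called too, at -1.44 ± 0.22 for 30 against 6 µg/L and -1.75 ± 0.27 for 50 against 30 µg/L. The gene ranked 12th of the 85 members by FPKM in control embryos and 60th at 50 µg/L. In whole embryos, fewer cells of a type and less RNA per cell cannot be told apart.

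Most of the photoreceptor markers opn1sw1, gnat2, crx, arr3a and rho were lower in exposed embryos too. Of these 5 genes, 3 were called lower at 6 µg/L, 3 at 30 µg/L and 4 at 50 µg/L (8.88%, 17.3% and 21.9% of all tested genes were), and none was at 0 in any library. Their summed level was 566 to 797 FPKM at 0 µg/L, 91.5 to 114 at 6 µg/L, 53.6 to 73.4 at 30 µg/L and 14.9 to 22 at 50 µg/L. Their part in the fall of cyp4v8 was not tested.

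The gene cyp27c1 makes vitamin A2 from vitamin A1 in the fish eye, which shifts the sensitivity of visual pigments towards red. It had 1.37, 1.78 and 2.7 FPKM at 0 µg/L, 3.25, 3.51 and 3.54 at 6, 4.74, 5.41 and 4.48 at 30, and 6.26, 6.39 and 8.32 at 50. Every exposed library lay above every control library. The log2 fold change was 0.80 ± 0.21, 1.3 ± 0.21 and 1.82 ± 0.21 at 6, 30 and 50 µg/L, with an edgeR adjusted p of 3.74e-05 at the highest dose. The call at 6 µg/L was lost when any 1 of these was left out: control replicates 1 or 2 or replicates 1, 2 or 3 at 6 µg/L (edgeR adjusted p from 0.0526 to 0.0943). Neither step between doses was called by itself. This eye-related gene thus rose over the same doses at which cyp4v8 and the summed photoreceptor markers were lower.

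The fall of cyp1d1, a family 1 gene that persists in fish but is a pseudogene in humans, was small and regular. Its levels were 3.08, 3.14 and 2.49 FPKM at 0 µg/L, 2.32, 2.05 and 2.41 at 6, 1.83, 1.99 and 1.98 at 30, and 1.75, 1.59 and 1.58 at 50. Exposed and control libraries did not overlap at any dose, but only 30 µg/L (-0.58 ± 0.13) and 50 µg/L (-0.82 ± 0.13) were called against control. A gene of the other strand, si:dkey-96l17.6, overlaps its span. The gene cyp3a65, the zebrafish member of the CYP3A subfamily of drug-oxidising enzymes of liver and gut, had 0.604, 0.654 and 1.15 FPKM at 0 µg/L, 0.718, 0.988 and 1.09 at 6, 1.84, 1.11 and 1.89 at 30, and 1.52, 2.04 and 2.21 at 50. It rose at 30 µg/L (0.99 ± 0.30) and 50 µg/L (1.23 ± 0.30, edgeR adjusted p = 0.0061), and 1 control library lay within the range of the 30 µg/L libraries. The call at 30 µg/L was lost when any 1 of these was left out: control replicates 1 or 2 or replicates 1 or 3 at 30 µg/L (edgeR adjusted p from 0.081 to 0.0976). With control replicate 3 as the only control, cyp3a65 was no longer steady, whereas the other 3 steady genes were steady in each of the 23 other settings tried for them.

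**Figure D2:**
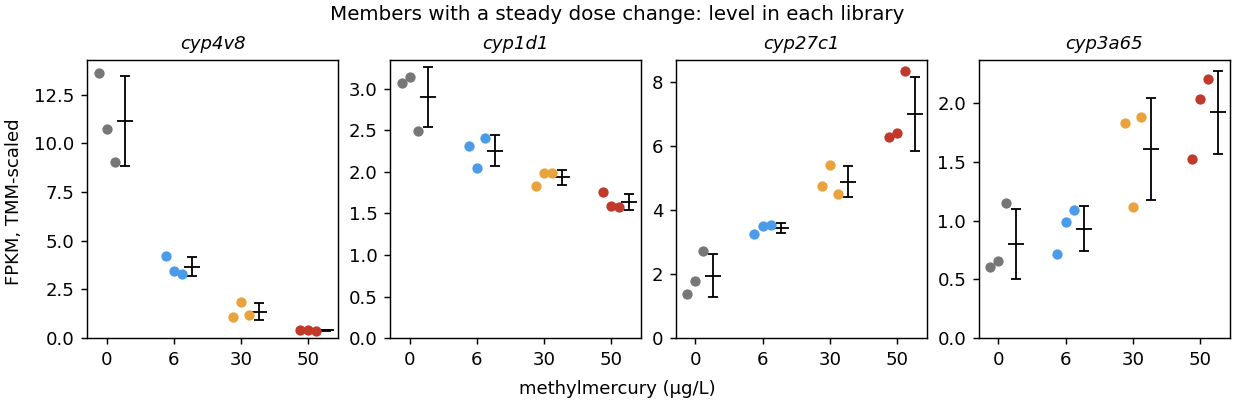
FPKM in each library (points) and the mean ± SD of the 3 libraries (bars beside the points) of the 4 steady P450 genes at 0, 6, 30 and 50 µg/L MeHg, drawn at even spacing. The group means of cyp4v8 and cyp1d1 fall at each dose, and those of cyp27c1 and cyp3a65 rise at each dose.

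Of the 11 swings, 7 were at 6 µg/L (5 members lower there and 2 higher, where 1.37% and 0.979% of all tested genes had such a swing) and 4 were at 30 µg/L (3 lower and 1 higher, against 1.09% and 0.651%). No member swung at both doses, against 0.908% of all tested genes.

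All 4 swings at 30 µg/L lay in 1 tandem array of family 2 genes on chromosome 20, which lies at chr20:25515259-25615802 in GRCz11 and holds 11 members of the subfamilies 2n, 2ad, 2v, 2p and 2j. Genes of this array stand where mammals have CYP2J, whose products make epoxides of arachidonic acid. Of its 9 tested members, 4 had a swing at 30 µg/L and the other 5 had another called change, so none was without a call.

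The gene cyp2p9 was almost silent at 30 µg/L alone. It had 68, 75 and 91 reads at 0 µg/L, 86, 68 and 46 at 6, 2, 2 and 3 at 30, and 95, 85 and 97 at 50. In FPKM, its level was 1.98, 1.64 and 1.74 FPKM at 0 µg/L, 2.06, 1.33 and 1.21 at 6, 0.0403, 0.0495 and 0.0592 at 30, and 2.24, 2.12 and 2.13 at 50. The 3 libraries at 30 µg/L thus held 7 reads in all, while no other library held fewer than 46. The mean of the 9 other libraries was 36.8 times the mean at 30 µg/L. The log2 fold change was -4.87 ± 0.33 at 30 against 6 µg/L (edgeR adjusted p = 4.08e-06) and 5.37 ± 0.32 at 50 against 30 µg/L (edgeR adjusted p = 1.95e-06). Against control it was called at 30 µg/L (-5.09) but not at 6 µg/L (-0.22 ± 0.21) or 50 µg/L (0.28 ± 0.20).

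The 2 genes that follow cyp2p9 along the array dipped in the same group, but less. The gene cyp2p10 had 2.74, 2.73 and 2.54 FPKM at 0 µg/L, 4.23, 2.94 and 3.25 at 6, 1.43, 2.11 and 1.86 at 30, and 4.14, 3.73 and 3.15 at 50, a step of -0.95 ± 0.19 at 30 against 6 µg/L and one of 1.03 ± 0.19 at 50 against 30 µg/L. Next in the array, cyp2j20 had 1.47, 1.49 and 1.28 FPKM at 0 µg/L, 1.1, 1.47 and 1.44 at 6, 0.597, 0.623 and 0.438 at 30, and 1.33, 1.95 and 1.11 at 50, with steps of -1.28 ± 0.27 and 1.4 ± 0.27. In both genes all 3 libraries at 30 µg/L lay below the 9 others. The call of cyp2p10 at 30 µg/L against control was lost when any 1 of these was left out: control replicates 1 or 2, replicate 3 at 6 µg/L, replicates 1 or 3 at 30 µg/L or replicates 1, 2 or 3 at 50 µg/L (edgeR adjusted p from 0.0501 to 0.156). On the other side of cyp2p9, cyp2p8 had 2.11, 1.22 and 1.79 FPKM at 0 µg/L, 0.717, 0.365 and 0.491 at 6, 0.478, 0.34 and 0.344 at 30, and 0.971, 0.528 and 1.07 at 50, and was called lower than control at all 3 doses (-1.7, -2.12 and -0.98), with neither step between doses called. Its call at 50 µg/L was lost when any 1 of these was left out: control replicate 1 or replicate 2 at 50 µg/L (edgeR adjusted p from 0.095 to 0.114).

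The fourth swing went the other way. The gene cyp2v1 had 11.8, 11.1 and 8.88 FPKM at 0 µg/L, 8.97, 6.85 and 7.28 at 6, 13.3, 11.5 and 12.3 at 30, and 6.14, 6.99 and 8.24 at 50, a rise of 0.68 ± 0.15 at 30 against 6 µg/L and a change of -0.80 ± 0.15 at 50 against 30 µg/L. Its 30 µg/L libraries overlapped the controls, so the swing separates the 30 µg/L group from the neighbouring doses but not from control (0.23 ± 0.15). The first of these steps was lost without replicate 2 at 6 µg/L (edgeR adjusted p = 0.052). Of the subfamily 2ad, cyp2ad2 had 1.31 ± 0.197, 0.333 ± 0.0704, 0.48 ± 0.185 and 0.523 ± 0.102 FPKM at 0, 6, 30 and 50 µg/L (mean ± SD, n = 3). The most abundant gene of the array, cyp2ad3, had 28.1 ± 6.91, 18.6 ± 1.76, 19.7 ± 0.92 and 21.4 ± 0.897 FPKM at 0, 6, 30 and 50 µg/L. Both fell at 6 and at 30 µg/L, by 1.94 and 1.41 on the log2 scale in cyp2ad2 and by 0.59 and 0.51 in cyp2ad3. For cyp2ad3, control replicate 3, at 20.2 FPKM, lay within the 30 µg/L libraries (18.8 to 20.6), and cyp2ad2 was tested only through its control group. In cyp2ad2 the fall was called at 50 µg/L as well. The gene cyp2p6 was called lower at 6 µg/L only (-0.81 ± 0.24, edgeR adjusted p = 0.0399). For cyp2ad6 only 50 µg/L was called (-1.06 ± 0.39, edgeR adjusted p = 0.0474), and its libraries there overlapped the controls. The calls of cyp2p6 and cyp2ad6 lie near the threshold, and neither these nor the calls of cyp2ad3 were followed when single libraries were left out.

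The spans of these genes overlap, so how reads were shared between them is uncertain. On the same strand, the gene model cyp2p7 runs across cyp2p8, cyp2p9, cyp2p10 and cyp2j20, and on the other strand cyp2v1 runs across cyp2ad2, cyp2ad3 and the end of cyp2ad6. The strand setting of the counting is not given in the sources used here. The level of cyp2p7 itself was below the minimum for testing and averaged 0.427, 0.487, 0.533 and 0.525 FPKM at 0, 6, 30 and 50 µg/L. These means were close to each other, and the sharing of reads between cyp2p7 and cyp2p9 was not tested.

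Close to the swinging members, swings of other genes were about as rare as in the whole table. Of 46 tested genes that are not members and lie within 100 kb of a member with a swing, 1 had any swing (aasdh, at both doses), against 5% of all tested genes. At 30 µg/L aasdh went down, the direction of cyp2p9, cyp2p10 and cyp2j20. Swings at both doses were found in 0.908% of all tested genes. Swings at 1 dose alone, of a given dose and direction, were found in 0.651% to 1.37%, so 46 genes are too few to show a difference.

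**Figure D3:**
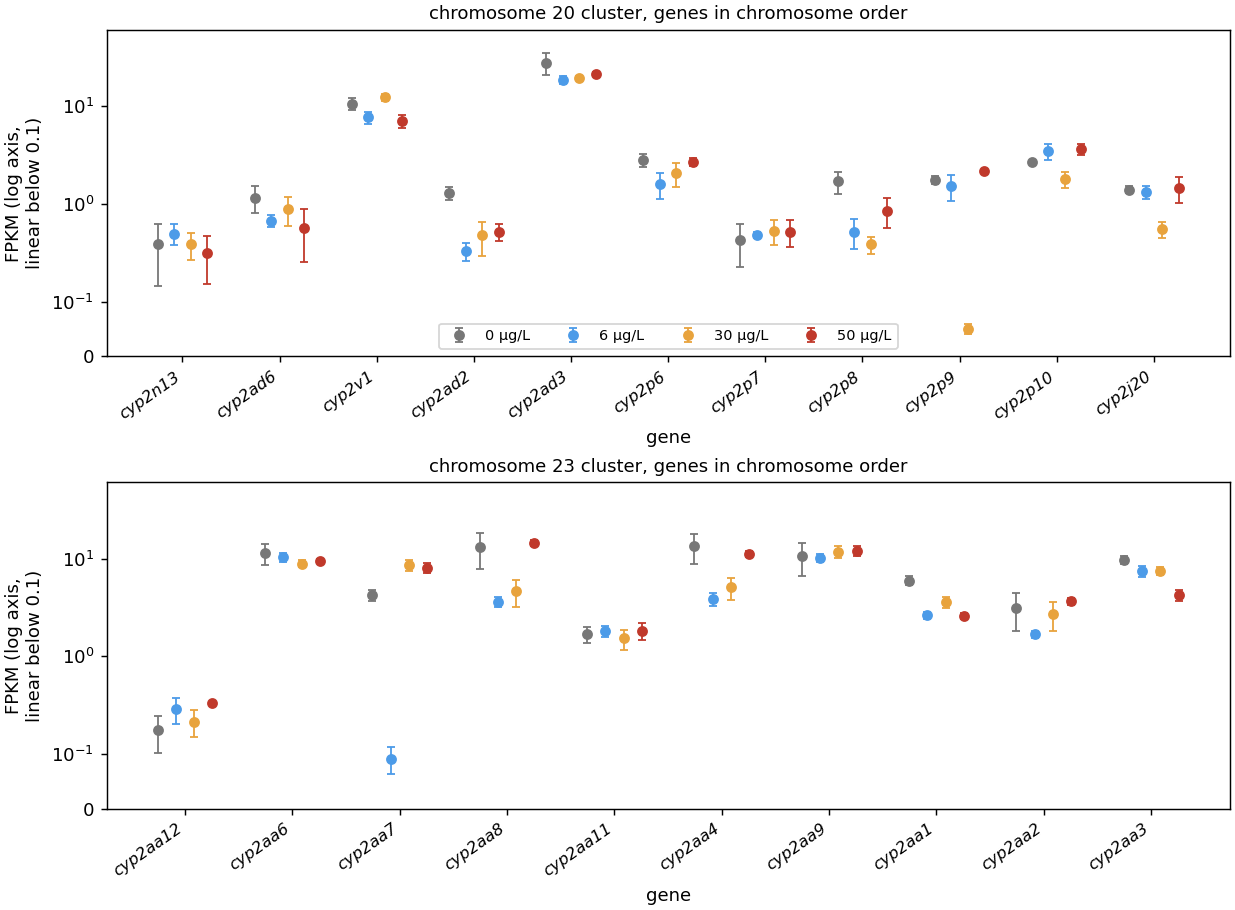
Group means of FPKM (± SD, n = 3) of the members of the chromosome 20 array and of the cyp2aa array on chromosome 23, in gene order, on an axis that is logarithmic above 0.1 FPKM and linear below it. In the chromosome 20 array cyp2p9 at 30 µg/L, at 0.0497 FPKM, stands far below its other groups, and in the chromosome 23 array cyp2aa7 at 6 µg/L, at 0.0906 FPKM, does so.

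At 6 µg/L the counterpart of cyp2p9 was cyp2aa7, in a second tandem array. That array holds 10 members of the cyp2aa subfamily, a group of genes expanded in zebrafish, over 201 kb (chr23:42292748-42493876). The gene cyp2aa7 had 93, 126 and 112 reads at 0 µg/L, 3, 2 and 2 at 6, 295, 187 and 253 at 30, and 187, 184 and 249 at 50. Its FPKM was 4.51, 4.58 and 3.57 FPKM at 0 µg/L, 0.12, 0.0649 and 0.0873 at 6, 9.9, 7.71 and 8.3 at 30, and 7.35, 7.63 and 9.12 at 50. All 3 libraries at 6 µg/L held 3 reads or fewer, and no other library held fewer than 93. The fall at 6 µg/L was -5.49 ± 0.28 against control (edgeR adjusted p = 7.73e-07) and the rise at 30 against 6 µg/L was 6.53 ± 0.27 (edgeR adjusted p = 1.10e-07). Unlike cyp2p9, it did not stop at the control level: it was higher than control at 30 µg/L (1.04 ± 0.16) and at 50 µg/L (0.93 ± 0.16), so it was called against control at every dose and in both directions.

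The rest of the cyp2aa array moved in several ways. The genes cyp2aa4 and cyp2aa8 were low at both lower doses. For cyp2aa4 the levels were 15.3, 16.6 and 8.23 FPKM at 0 µg/L, 4.45, 3.28 and 3.82 at 6, 6.55, 4.23 and 4.46 at 30, and 11, 10.5 and 12 at 50. For cyp2aa8 they were 16, 16.4 and 6.93 FPKM at 0 µg/L, 3.88, 3.11 and 3.91 at 6, 5.89, 3.08 and 4.95 at 30, and 14.8, 15.5 and 13.5 at 50. In cyp2aa4 the change was -1.8 ± 0.25 at 6 µg/L, -1.39 ± 0.25 at 30 µg/L and 1.13 ± 0.25 at 50 against 30 µg/L. In cyp2aa8 these changes were -1.85 ± 0.30, -1.49 ± 0.29 and 1.65 ± 0.29, all called. Neither gene was called at 50 µg/L against control. The rise of cyp2aa4 at 50 against 30 µg/L was lost when any 1 of these was left out: replicates 2 or 3 at 30 µg/L or replicate 3 at 50 µg/L (edgeR adjusted p from 0.0554 to 0.0638). The gene cyp2aa1 was lower than control at all 3 doses, with 5.95 ± 0.633, 2.62 ± 0.226, 3.6 ± 0.489 and 2.59 ± 0.165 FPKM at 0, 6, 30 and 50 µg/L. The gene cyp2aa3 was called against control at 50 µg/L only (-1.19 ± 0.15), with 9.73 ± 0.997, 7.48 ± 0.966, 7.49 ± 0.726 and 4.26 ± 0.533 FPKM at 0, 6, 30 and 50 µg/L. Its exposed and control libraries did not overlap at any dose, but the changes at 6 and 30 µg/L (-0.38 each) missed the threshold. A further 4 tested genes of the array, cyp2aa2, cyp2aa6, cyp2aa9 and cyp2aa11, had no call in any comparison.

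The annotated span of cyp2aa8 covers cyp2aa7, cyp2aa11 and cyp2aa4 on the same strand, so the split of reads between these genes is uncertain. On the other strand, the gene CU013526.1 overlaps cyp2aa1, cyp2aa2 and cyp2aa9. In all, 16 of the P450 genes overlap a gene on the other strand, and the strand setting of the counting is not given. The summed FPKM of the array was 73.3 ± 18.7, 41.8 ± 4.23, 54.6 ± 6.65 and 68 ± 0.849 at 0, 6, 30 and 50 µg/L (mean ± SD, n = 3), and that of the chromosome 20 array was 52.4 ± 9.28, 36.8 ± 3.72, 39.2 ± 2.04 and 41.4 ± 1.41. For both sums the control SD is large, and it includes control replicate 3, at 51.8 FPKM in the cyp2aa array and 42 FPKM in the chromosome 20 array.

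The other swings at 6 µg/L were smaller. The gene cyp27a7, a mitochondrial sterol 27-hydroxylase copy, had 8.34, 7.09 and 5.76 FPKM at 0 µg/L, 2.81, 2.71 and 2.69 at 6, 4.62, 3.84 and 4.69 at 30, and 4.19, 4.28 and 4.42 at 50. It fell at 6 µg/L (-1.36 ± 0.15), regained part of the difference at 30 against 6 µg/L (0.68 ± 0.15) and remained below control at 30 and 50 µg/L (-0.68 and -0.71). The most abundant P450 gene, cyp2y3 (ENSDARG00000101423), had 43.4, 41.7 and 23 FPKM at 0 µg/L, 22.2, 20.6 and 18 at 6, 46.9, 42.5 and 45.5 at 30, and 40.1, 39.9 and 40.3 at 50, with a fall at 6 µg/L (-0.83 ± 0.19) and a rise at 30 against 6 µg/L (1.15 ± 0.19). Its control libraries spread widely, and against control replicate 3 alone the change at 6 µg/L was -0.17 and not called. The call at 6 µg/L was also lost when any 1 of these was left out: control replicate 2 or replicates 2 or 3 at 6 µg/L (edgeR adjusted p from 0.0524 to 0.0662). The second row of the same symbol lies within the span of the first, had 1.17, 0.759, 0.726 and 0.687 FPKM at 0, 6, 30 and 50 µg/L, and had no call.

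The gene cyp3c1, of a fish subfamily related to CYP3A, had 23.9, 21.8 and 18.7 FPKM at 0 µg/L, 15.3, 14.3 and 14.5 at 6, 20.6, 17.8 and 19.4 at 30, and 24.1, 24 and 27.2 at 50. All 3 libraries at 6 µg/L lay below the 9 others, with steps of -0.54 ± 0.11 and 0.39 ± 0.11. The family 2 gene cyp2x9 had 2.05, 1.71 and 0.644 FPKM at 0 µg/L, 0.156, 0.317 and 0.313 at 6, 1.01, 0.591 and 0.642 at 30, and 0.41, 0.514 and 0.334 at 50, with steps of -2.44 ± 0.45 and 1.5 ± 0.46. The gene cyp2x9 was tested only through its control group, whose libraries spread widely, and its step at 30 against 6 µg/L was lost when any 1 of these was left out: control replicate 2, replicates 1, 2 or 3 at 6 µg/L, replicates 1, 2 or 3 at 30 µg/L or replicates 1, 2 or 3 at 50 µg/L (edgeR adjusted p from 0.0543 to 0.172). The same step of cyp3c1 was lost when any 1 of these was left out: replicates 1, 2 or 3 at 6 µg/L, replicates 1 or 3 at 30 µg/L or replicate 1 at 50 µg/L (edgeR adjusted p from 0.0521 to 0.131). Of the other settings tried, the swing was found in 8 of 23 for cyp2x9 and in 12 of 24 for cyp3c1.

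The 2 members that swung upwards at 6 µg/L were cyp1b1 and cyp46a1.4. The first, a family 1 gene expressed in the embryonic eye and brain, had 1.38, 1.04 and 1.32 FPKM at 0 µg/L, 1.79, 2.16 and 1.88 at 6, 1.21, 1.41 and 1.25 at 30, and 1.36, 1.35 and 1.6 at 50 and steps of 0.65 ± 0.16 and -0.60 ± 0.16. The second, a copy of the brain cholesterol 24-hydroxylase, had 0.662, 0.579 and 0.363 FPKM at 0 µg/L, 1.75, 1.13 and 1.23 at 6, 0.458, 0.313 and 0.274 at 30, and 0.209, 0.409 and 0.806 at 50 and steps of 1.38 ± 0.39 and -1.96 ± 0.41. In both, the 3 libraries at 6 µg/L lay above the 9 others, but cyp46a1.4 is among the members tested only through their highest group, here 6 µg/L. The rise of cyp1b1 at 6 µg/L was lost when any 1 of these was left out: control replicate 2 or replicates 2 or 3 at 6 µg/L (edgeR adjusted p from 0.0563 to 0.102). Its step at 30 against 6 µg/L was lost when any 1 of these was left out: replicates 1, 2 or 3 at 6 µg/L or replicates 1 or 3 at 30 µg/L (edgeR adjusted p from 0.0517 to 0.106), and the rise of cyp46a1.4 at 6 µg/L was lost when any 1 of these was left out: control replicates 1 or 2, replicates 1, 2 or 3 at 6 µg/L, replicates 2 or 3 at 30 µg/L or replicate 2 at 50 µg/L (edgeR adjusted p from 0.0509 to 0.111). Over all settings, cyp1b1 kept its swing in 13 and cyp46a1.4 in 12 of 23 other settings, while cyp2aa7, cyp2p9 and cyp2j20 kept theirs in all of the 23 or 24 tried.

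Markers of several tissues also had a low point at 6 µg/L. Of 7 tested intestinal markers among fabp2, fabp6, anpepb, vil1, cdx1b, slc15a1b, tm4sf5 and apoa4a, 5 were lower than control at 6 µg/L (8.88% of all tested genes were) and 3 were higher at 30 than at 6 µg/L (7.13%). Their summed level was 71.8 to 87.4 FPKM at 6 µg/L, 151 to 167 at 30 µg/L and 120 to 135 at 50 µg/L, and at 0 µg/L it was 82.6 to 208, which overlaps the range at 6 µg/L. Of the 4 skeletal muscle markers ckma, mylpfa, actc1b and tnnt3b, 2 were lower at 6 µg/L and 2 higher at 30 than at 6 µg/L, with sums of 19000 to 20400 FPKM at 0 µg/L, 12690 to 15810 at 6 µg/L, 19100 to 21340 at 30 µg/L and 16470 to 19830 at 50 µg/L. Of the 3 erythrocyte markers hbbe1.1, hbae1.1 and alas2, 2 were lower at 6 µg/L, with sums of 594 to 2265 FPKM at 0 µg/L, 562 to 699 at 6 µg/L, 913 to 1301 at 30 µg/L and 1680 to 1947 at 50 µg/L. The ranges at 0 and 6 µg/L overlap, and none of these 3 markers was called higher at 30 than at 6 µg/L. All 6 markers of the exocrine pancreas were lower at 6 µg/L as well, and 2 of them were higher at 30 than at 6 µg/L. The pronephros and epidermis markers had no call at 6 µg/L against control, but 1 of the 4 epidermis markers was higher at 30 than at 6 µg/L. None of these markers was at 0 in any library, and their part in the swings at 6 µg/L was not tested.

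**Figure D4:**
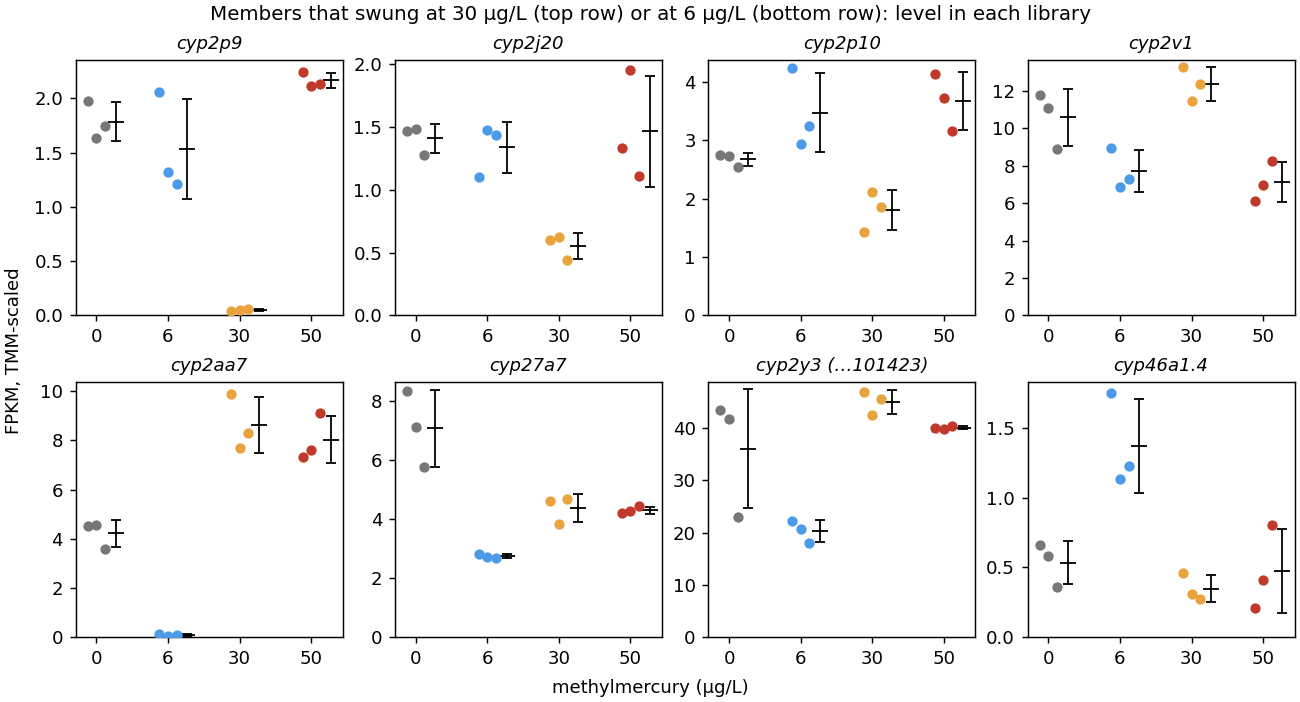
FPKM in each library (points) and mean ± SD (bars, n = 3) at 0, 6, 30 and 50 µg/L for the 4 genes with a swing at 30 µg/L (top) and for 4 of the 7 with a swing at 6 µg/L (bottom). The points of cyp2p9 at 30 µg/L and of cyp2aa7 at 6 µg/L lie on the zero line at this scale, and those of cyp46a1.4 at 6 µg/L stand above all others.

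Another shape was a fall by the lowest dose with no called step after it. In all, 9 members were lower than control at all 3 doses (cyp4v8, cyp8b1, cyp27a1.4, cyp27a7, cyp46a1.1, cyp2aa1, cyp2ad2, cyp2p8 and cyp11c1; 9 of 61, against 4.81% of all tested genes). For 7 of these neither step between doses was called, the exceptions being cyp4v8 and cyp27a7 (3.28% of all tested genes had that shape). The 7 include cyp2ad2 and cyp11c1, tested only through their control group. This grouping was made after the values were seen, and a step that misses the threshold does not show equal levels.

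Of these 7, cyp8b1 and cyp27a1.4 are genes of bile acid synthesis. In mammals, bile acids are made from cholesterol in the liver, through the neutral route that CYP7A1 opens and the acidic route that CYP27A1 opens. There CYP8B1 sets the share of cholic acid, and bile acids were not measured here. The gene cyp8b1 (chr2:3435888-3437862) had 5.97, 6.05 and 5.42 FPKM at 0 µg/L, 1.61, 1.68 and 1.61 at 6, 1.69, 1.81 and 1.98 at 30, and 1.92, 2.35 and 2.44 at 50. Its 9 exposed libraries all lay far below the controls, control replicate 3 included. The change was -1.83 ± 0.15 at 6 µg/L, -1.67 ± 0.15 at 30 µg/L and -1.38 ± 0.14 at 50 µg/L (edgeR adjusted p = 1.54e-05, 9.30e-06 and 1.72e-05).

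The gene cyp7a1, whose mammalian enzyme is rate-limiting, was below the minimum for testing, with 28, 20 and 42 reads at 0 µg/L, 2, 8 and 4 at 6, 6, 10 and 4 at 30, and 2, 5 and 2 at 50. No exposed library reached the lowest control. When every gene with a read was tested, its change was -2.63 ± 0.52, -2.18 ± 0.49 and -3.18 ± 0.55 at 6, 30 and 50 µg/L (edgeR adjusted p = 0.00465, 0.00535 and 0.000556). The sterol 27-hydroxylase copy cyp27a1.4 averaged 2.16 ± 0.745, 0.869 ± 0.122, 0.728 ± 0.109 and 0.908 ± 0.0688 FPKM at 0, 6, 30 and 50 µg/L and changed by -1.3, -1.54 and -1.23. Its neighbour cyp27a1.2 was below the minimum, with 5, 1 and 11 reads at 0 µg/L, 0, 0 and 0 at 6, 14, 1 and 6 at 30, and 4, 5 and 2 at 50. The oxysterol 7-alpha-hydroxylase cyp7b1 was at 8.08 ± 1.42, 5.88 ± 0.67, 4.84 ± 1.02 and 5.39 ± 0.75 FPKM at 0, 6, 30 and 50 µg/L and fell at 30 and 50 µg/L (-0.73 ± 0.19 and -0.58 ± 0.19) but was not called at 6 µg/L.

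The brain enzyme copies of family 46 turn cholesterol over by another route. The cholesterol 24-hydroxylase copy cyp46a1.1 was, like cyp8b1, lower at all 3 doses, at 1.62 ± 0.0439, 0.96 ± 0.0889, 0.973 ± 0.118 and 0.99 ± 0.0769 FPKM at 0, 6, 30 and 50 µg/L, with changes of -0.76, -0.73 and -0.71. The call at 6 µg/L was lost when any 1 of these was left out: replicates 2 or 3 at 6 µg/L (edgeR adjusted p from 0.05 to 0.0764). Its relatives cyp46a1.2 and cyp46a1.3 had no call, and cyp46a1.4 swung upwards at 6 µg/L as described. The 24-hydroxycholesterol 7-alpha-hydroxylase cyp39a1 was called only at 30 against 6 µg/L (-0.91 ± 0.28, edgeR adjusted p = 0.0452). It was tested only through its 6 µg/L group, and its call was not followed when single libraries were left out. The lanosterol demethylase cyp51 of cholesterol synthesis had 4.99 ± 0.858, 4.51 ± 0.222, 4.77 ± 0.779 and 4.42 ± 0.451 FPKM at 0, 6, 30 and 50 µg/L and no call in any of the 5 comparisons.

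Markers of liver and of exocrine pancreas were lower over the same doses. Of 9 tested liver markers among fabp10a, tfa, cp, fga, fgb, fgg, ambp, serpina1, ttr and hpda, 4 were lower at 6 µg/L, 6 at 30 µg/L and 5 at 50 µg/L (8.88%, 17.3% and 21.9% of all tested genes), and 2 were higher at 50 µg/L (17.6%). Their summed level was 650 to 1173 FPKM at 0 µg/L, 558 to 653 at 6 µg/L, 567 to 604 at 30 µg/L and 671 to 695 at 50 µg/L, and ttr was at 0 in some libraries. The liver sums at 50 µg/L lay within the wide range of the controls, while the median log2 fold change of the 9 tested markers there was -0.722. Of the 6 exocrine pancreas markers ctrb1, prss1, prss59.2, cpa5, ela2l and cel.1, all were lower at 6 µg/L and 5 at 30 and at 50 µg/L. Their summed level was 55.9 to 78.1 FPKM at 0 µg/L, 11.6 to 16.1 at 6 µg/L, 16.6 to 18.9 at 30 µg/L and 21.5 to 24.8 at 50 µg/L, so it was far below the controls in every exposed library. The part of either tissue in the lower P450 genes was not tested.

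**Figure D5:**
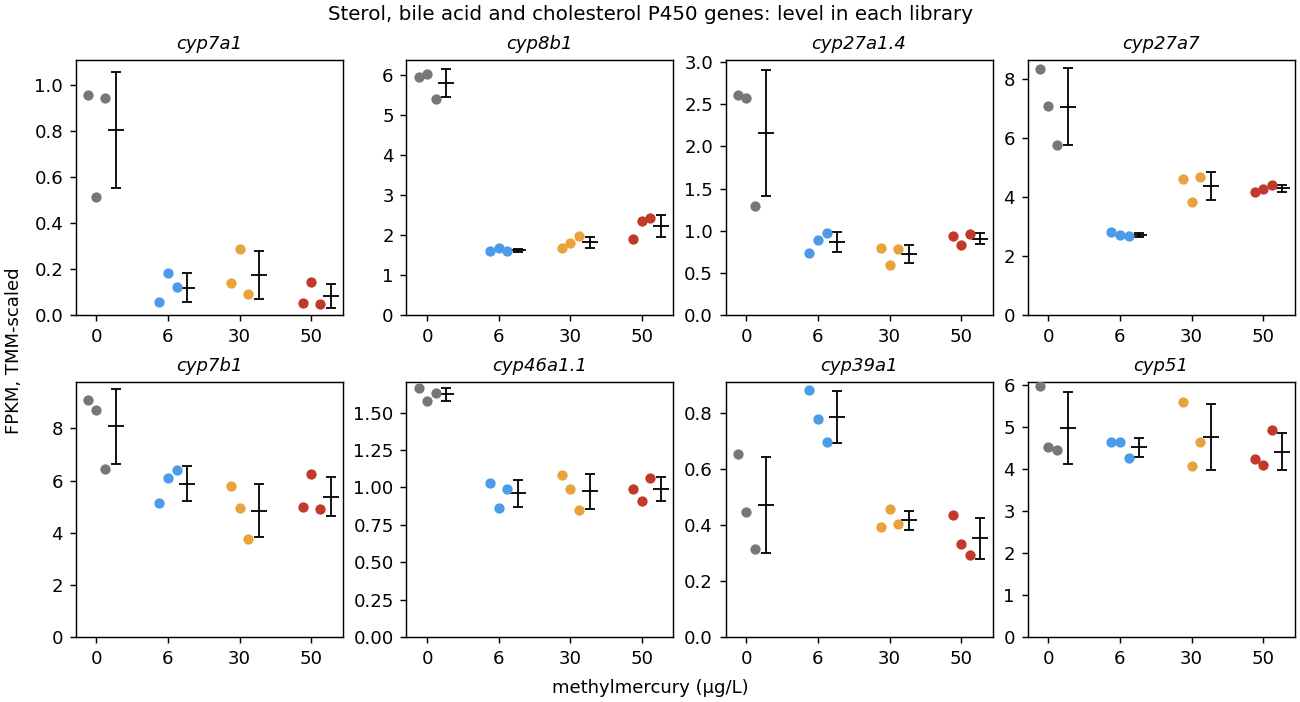
FPKM in each library (points) and mean ± SD (bars, n = 3) of 8 P450 genes of bile acid and cholesterol metabolism at 0, 6, 30 and 50 µg/L MeHg. For cyp8b1 and cyp46a1.1 all 9 exposed libraries lie below the 3 controls, and for cyp51 the groups overlap.

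Most family 1 genes are induced through the aryl hydrocarbon receptor in fish, with cyp1d1 as an exception. The receptor's classic target cyp1a had 18.8, 19.3 and 7.2 FPKM at 0 µg/L, 12.4, 10.6 and 8.88 at 6, 6.54, 9.02 and 8.12 at 30, and 13.7, 16.8 and 23.1 at 50. It was called lower at 30 µg/L (-0.93 ± 0.31, edgeR adjusted p = 0.0398) and higher at 50 than at 30 µg/L (1.18 ± 0.31, edgeR adjusted p = 0.0355). The first of these rests on control replicates 1 and 2, since against control replicate 3 alone the change was 0.15. It was also lost when any 1 of these was left out: control replicates 1 or 2, replicates 1, 2 or 3 at 6 µg/L, replicates 1, 2 or 3 at 30 µg/L or replicate 2 at 50 µg/L (edgeR adjusted p from 0.052 to 0.161). The step at 50 against 30 µg/L was lost when any 1 of these was left out: replicate 2 at 6 µg/L, replicates 1, 2 or 3 at 30 µg/L or replicates 2 or 3 at 50 µg/L (edgeR adjusted p from 0.0532 to 0.152). Without control replicate 3, cyp1a joined the genes with a swing at 30 µg/L. The gene cyp1c2 had 4.34, 3.81 and 2.65 FPKM at 0 µg/L, 4.03, 3.63 and 3.85 at 6, 1.44, 2.29 and 2.2 at 30, and 1.93, 1.49 and 1.94 at 50, and fell at 30 and 50 µg/L against control (-0.86 ± 0.22 and -1.0 ± 0.22) and at 30 against 6 µg/L (-0.96 ± 0.22). The last of these was lost without replicate 1 at 30 µg/L (edgeR adjusted p = 0.0515). By group mean, cyp1a was lowest at 30 µg/L, cyp1b1 highest at 6 µg/L, and cyp1c2 low at both higher doses.

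The other CYP3 genes lie side by side on chromosome 3. Against control, the 2 rows named cyp3c3 were called in opposite directions at 50 µg/L. cyp3c3 (ENSDARG00000037873) had 0.588 ± 0.0246, 0.415 ± 0.20, 0.765 ± 0.258 and 1.31 ± 0.106 FPKM at 0, 6, 30 and 50 µg/L and rose at 50 µg/L (1.16 ± 0.32). cyp3c3 (ENSDARG00000037874) had 0.486 ± 0.191, 0.659 ± 0.152, 0.76 ± 0.166 and 0.183 ± 0.0286 FPKM at 0, 6, 30 and 50 µg/L and fell at 50 against control (-1.39 ± 0.41) and at 50 against 30 µg/L (-2.04 ± 0.39). This second row was tested only through its 30 µg/L group, so its fall from that group was favoured by the filter. The fall against control was lost when any 1 of these was left out: control replicates 1 or 3 or replicate 3 at 50 µg/L (edgeR adjusted p from 0.0514 to 0.0664). Their neighbour cyp3c4 fell at 50 µg/L (-0.84 ± 0.30, edgeR adjusted p = 0.0432), a call that was not followed when single libraries were left out. All 3 are close copies with levels under 1.5 FPKM, so the share of reads each received is uncertain.

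Among the remaining family 2 genes, the fatty acid hydroxylase cyp2u1 fell at 30 and 50 µg/L (-1.04 ± 0.27 and -0.99 ± 0.27). The cyp2k array on chromosome 3 held 8 members, of which 3 were tested. Its most abundant gene, cyp2k16, had 14.2 ± 2.34, 11.2 ± 0.0653, 8.92 ± 1.24 and 8.91 ± 0.514 FPKM at 0, 6, 30 and 50 µg/L and fell at 30 and 50 µg/L (-0.67 ± 0.14 and -0.67 ± 0.14), while cyp2k8 rose at 50 against 30 µg/L (0.85 ± 0.19). cyp2x10.2 (ENSDARG00000006501) fell at 30 and 50 µg/L (-1.55 ± 0.46 and -1.63 ± 0.47), and both calls were lost against control replicate 3 alone. The call at 30 µg/L was lost when any 1 of these was left out: control replicates 1 or 2 or replicates 2 or 3 at 30 µg/L (edgeR adjusted p from 0.077 to 0.101), and that at 50 µg/L was lost when any 1 of these was left out: control replicates 1 or 2 or replicates 1 or 3 at 50 µg/L (edgeR adjusted p from 0.06 to 0.0638). This row of cyp2x10.2 was tested only through its control group, so its falls were favoured by the filter. The vitamin D 25-hydroxylase cyp2r1, cyp2x7, cyp2ae1, cyp2k19 and the orphan gene cyp20a1 had no call. In family 4, cyp4t8 averaged 2.19 ± 0.404, 0.94 ± 0.225, 1.44 ± 0.426 and 1.29 ± 0.191 FPKM at 0, 6, 30 and 50 µg/L and fell at 6 and 50 µg/L (-1.22 ± 0.26 and -0.76 ± 0.25). With cyp4v8, this took the summed FPKM of the 4 family 4 genes to 14.5 ± 2.81, 5.17 ± 0.541, 3.93 ± 0.206 and 2.56 ± 0.161 at 0, 6, 30 and 50 µg/L.

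Retinoic acid, which patterns the hindbrain and eye, is broken down by the 3 cyp26 enzymes. The gene cyp26c1 was the one called higher than control at every dose besides cyp27c1 (2 of 61 members, against 2.73% of all tested genes). It had 2.08, 2.32 and 2.75 FPKM at 0 µg/L, 5.09, 3.95 and 5.3 at 6, 3.99, 4.68 and 4.32 at 30, and 6.46, 6.52 and 5.84 at 50, with changes of 1.0 ± 0.15, 0.85 ± 0.15 and 1.39 ± 0.15 (edgeR adjusted p = 0.00098, 0.00111 and 1.78e-05). A gene of the other strand, CU571091.1, overlaps the span of cyp26c1. All 9 exposed libraries lay above the 3 controls, though the mean was lower at 30 than at 6 µg/L and cyp26c1 was therefore not steady. Its rise at 50 against 30 µg/L (0.54 ± 0.14) was lost when any 1 of these was left out: replicates 1, 2 or 3 at 30 µg/L or replicates 1, 2 or 3 at 50 µg/L (edgeR adjusted p from 0.0638 to 0.133). The gene cyp26a1 had 11.5, 11.5 and 6.76 FPKM at 0 µg/L, 9.79, 9.54 and 8.68 at 6, 6.84, 6.47 and 7.09 at 30, and 10.4, 10.1 and 10.5 at 50. It was called lower at 30 µg/L (-0.54 ± 0.17), a change that was 0.026 against control replicate 3 alone. The call was also lost when any 1 of these was left out: control replicates 1 or 2, replicates 1, 2 or 3 at 30 µg/L or replicate 2 at 50 µg/L (edgeR adjusted p from 0.0521 to 0.141). The most abundant of the 3, cyp26b1, had 16.2 ± 0.705, 17.3 ± 0.387, 18.9 ± 1.14 and 17.8 ± 0.318 FPKM at 0, 6, 30 and 50 µg/L and no call.

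Steroid hormone genes were mostly uncalled or too low to test. In the interrenal gland, cortisol is made from cholesterol by cyp11a2, cyp17a1, cyp21a2 and, in the last step, the 11-beta-hydroxylase cyp11c1. The gene cyp11c1 had 0.872, 0.776 and 1.22 FPKM at 0 µg/L, 0.426, 0.529 and 0.491 at 6, 0.566, 0.625 and 0.48 at 30, and 0.331, 0.28 and 0.309 at 50 and was lower at all 3 doses (-0.99 ± 0.24, -0.79 ± 0.23 and -1.64 ± 0.25). The call at 6 µg/L was lost when any 1 of these was left out: replicates 1 or 3 at 6 µg/L (edgeR adjusted p from 0.059 to 0.0636), and that at 30 µg/L was lost when any 1 of these was left out: control replicate 3 or replicates 1 or 3 at 30 µg/L (edgeR adjusted p from 0.0601 to 0.0958). Because cyp11c1 was tested only through its control group, its fall cannot be set against the other genes of this route. Of those, cyp11a2, cyp17a1 and cyp21a2 had no call. At 0, 6, 30 and 50 µg/L the group means were 0.557, 0.563, 0.55 and 0.507 FPKM for cyp11a2 and 7.22, 6.64, 6.42 and 8.64 FPKM for cyp17a1. Those of cyp21a2 were 0.866, 0.871, 0.836 and 0.856 FPKM. The interrenal markers star, mc2r and nr5a1a summed to 4.78 to 7.28 FPKM at 0 µg/L, 6.37 to 7.63 at 6 µg/L, 4.75 to 6.46 at 30 µg/L and 6.39 to 7.1 at 50 µg/L. Only 1 of these 3 markers reached the minimum for testing, and it had no call at any dose. The part of the gland in the lower cyp11c1 was not tested.

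The genes cyp11a1, cyp17a2, cyp19a1a and cyp19a1b were below the minimum. The brain aromatase cyp19a1b, which makes oestrogen in radial glia, had 16, 27 and 25 reads at 0 µg/L, 20, 30 and 18 at 6, 9, 8 and 10 at 30, and 12, 10 and 12 at 50. It was lower at 30 and 50 µg/L when every gene with a read was tested (-1.37 ± 0.31 and -0.90 ± 0.30, edgeR adjusted p = 0.00618 and 0.0369). Of the 4 radial glia markers gfap, fabp7a, slc1a2b and s100b, 2 were lower at 30 and 2 at 50 µg/L (17.3% and 21.9% of all tested genes were). At 30 against 6 µg/L 1 of these markers rose and 1 fell. Their sums were 671 to 882 FPKM at 0 µg/L, 597 to 674 at 6 µg/L, 585 to 614 at 30 µg/L and 561 to 596 at 50 µg/L. The part of these markers in the lower cyp19a1b was not tested. The gonadal aromatase cyp19a1a had 9 reads in the control libraries together and 1, 2 and 3 reads in those at 6, 30 and 50 µg/L, so no change could be detected at this depth.

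The enzymes that make and remove active vitamin D differed. The 1-alpha-hydroxylase cyp27b1, which activates vitamin D, had 1.49, 1.28 and 1.12 FPKM at 0 µg/L, 0.807, 1.25 and 0.684 at 6, 0.855, 0.969 and 0.836 at 30, and 0.205, 0.46 and 0.383 at 50. It fell at 50 µg/L against control (-1.88 ± 0.31, edgeR adjusted p = 0.000563) and against 30 µg/L (-1.34 ± 0.32), and all 3 libraries at 50 µg/L lay below the 9 others. The step from 30 µg/L was lost when any 1 of these was left out: replicates 1, 2 or 3 at 30 µg/L or replicates 1 or 3 at 50 µg/L (edgeR adjusted p from 0.0536 to 0.0862). The 24-hydroxylase cyp24a1, which degrades the hormone, had 2.14, 1.9 and 4.02 FPKM at 0 µg/L, 3.53, 4.61 and 3.49 at 6, 1.42, 1.74 and 2.3 at 30, and 3.5, 2.93 and 4.4 at 50. It fell at 30 against 6 µg/L (-1.09 ± 0.29, edgeR adjusted p = 0.0222), and its step at 50 against 30 µg/L missed the threshold (0.99 ± 0.29, edgeR adjusted p = 0.0519). The call at 30 against 6 µg/L was lost when any 1 of these was left out: replicate 2 at 6 µg/L or replicates 1 or 2 at 30 µg/L (edgeR adjusted p from 0.0781 to 0.0994). Control replicate 3 was the highest control for cyp24a1, and without it the gene counted as a swing at both doses.

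Of the 24 members below the minimum, 3 had 12 reads or fewer over the 12 libraries. Testing every gene with a read called further changes in cyp2x10.2 (ENSDARG00000068283), cyp27a1.2, cyp4v7, cyp2k17, cyp2k18 and 1 row of cyp2k6, besides cyp7a1 and cyp19a1b. Of all genes, 9.84%, 20.9% and 28.3% were then called at 6, 30 and 50 µg/L, 10.7% at 30 against 6 µg/L and 21% by trend. The calls of cyp27a1.2 at 6 µg/L and cyp2k17 at 30 µg/L lie near the threshold (edgeR adjusted p = 0.0499 and 0.0488). The cyp2k6 row had 8 reads in the control libraries together and 0 at 50 µg/L. cyp2x10.2 (ENSDARG00000068283) had 15, 13 and 14 reads at 0 µg/L, 0, 3 and 0 at 6, 35, 9 and 28 at 30, and 4, 5 and 9 at 50 and changed by -3.65 ± 0.79 at 6 µg/L and 4.31 ± 0.74 at 30 against 6 µg/L. The gene cyp4v7, the relative of cyp4v8, had 42, 56 and 66 reads at 0 µg/L, 35, 22 and 17 at 6, 57, 41 and 66 at 30, and 31, 32 and 32 at 50 and changed by -1.09 ± 0.26 at 6 µg/L and 1.03 ± 0.26 at 30 against 6 µg/L. These 2 genes thus had their low point at 6 µg/L, and cyp4v7 did not follow the steady fall of cyp4v8. The gene cyp2k18 had 6, 12 and 5 reads at 0 µg/L, 12, 9 and 9 at 6, 6, 4 and 15 at 30, and 27, 21 and 30 at 50 and was higher at 50 µg/L (1.82 ± 0.44).

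The partners and regulators of P450 enzymes were counted from lists of their genes. Calls of these list genes were not followed under the alternatives or when single libraries were left out. P450s receive electrons from cytochrome P450 reductase and cytochrome b5 in the endoplasmic reticulum and from ferredoxins in mitochondria. Against control, 14.4%, 30.8% and 39.5% of all tested genes were called at 6, 30 and 50 µg/L, and each list is read beside these shares. Of 12 such redox genes tested, 1 rose and 2 fell at 6 µg/L, 1 rose and 3 fell at 30 µg/L, and 2 rose and 4 fell at 50 µg/L, or 25%, 33.3% and 50% of the list. At 50 µg/L the reductase copy porb rose (0.64 ± 0.11), as did the ferredoxin fdx2 (0.98 ± 0.16), while the b5 reductases cyb5r4 and cyb5r1 fell (-0.74 ± 0.15 and -0.77 ± 0.16). Another ferredoxin, fdx1, was called lower at 6, 30 and 50 µg/L (-0.65 ± 0.17, -0.71 ± 0.17 and -0.49 ± 0.17). For fdx1, control replicate 3, at 26.3 FPKM, lay within the 50 µg/L libraries (26.2 to 28.3).

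In the aryl hydrocarbon receptor pathway 8 genes were tested, and the shares called, 25% at 30 µg/L and 12.5% at 50 µg/L, were below those of all tested genes. At 30 µg/L 1 rose and 1 fell, and at 50 µg/L 1 rose, which was the receptor target tiparp (0.58 ± 0.18). For tiparp, control replicate 3, at 11.2 FPKM, lay within the 50 µg/L libraries (10.6 to 13.8). The receptor gene ahr2 itself had no call against control. Of 19 tested nuclear receptors and liver factors, 4 fell at 6 µg/L, 1 rose and 3 fell at 30 µg/L, and 1 rose and 5 fell at 50 µg/L (21.1%, 21.1% and 31.6%, the last 2 below the share of all tested genes). The pregnane X receptor gene nr1i2, which regulates CYP3A genes in vertebrates, was lower at 6 µg/L (-1.08 ± 0.15) and at 50 µg/L (-0.62 ± 0.14). It was higher at 30 than at 6 µg/L (0.75 ± 0.15), which is a swing at 6 µg/L. Among liver regulators of P450 genes in mammals, hnf4a was lower at 30 and 50 µg/L (-0.48 ± 0.16 and -0.47 ± 0.16). For hnf4b all 3 doses were called lower (-0.84 ± 0.25, -0.91 ± 0.25 and -1.39 ± 0.26). Control replicate 3 lay within the 50 µg/L libraries for hnf4a (3.01 FPKM) and within the 6 µg/L libraries for hnf4b (4.26 FPKM). The retinoid receptor gene rxrba was higher at 50 µg/L (0.67 ± 0.19). Its control replicate 3, at 15.9 FPKM, was near the 50 µg/L libraries (16.2 to 18.5), while control replicates 1 and 2 had 8.62 and 8.67.

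The cholesterol and bile acid list, without P450 genes, had 18 tested genes. Of these 1 rose and 3 fell at 6 µg/L, 3 rose and 6 fell at 30 µg/L, and 4 rose and 5 fell at 50 µg/L (22.2%, 50% and 50%). The bile acid importer slc10a1 and fgf19, an intestinal hormone whose mammalian form represses Cyp7a1, both fell at 50 µg/L (-2.1 ± 0.26 and -1.6 ± 0.32), as did the cholesterol synthesis gene nsdhl (-0.71 ± 0.16), and the receptor gene ldlrb rose (0.88 ± 0.19). Of 19 retinoic acid genes, 1 fell at 6 µg/L, 2 rose and 1 fell at 30 µg/L, and 6 rose and 1 fell at 50 µg/L (5.26%, 15.8% and 36.8%, all below the share of all tested genes). At that dose the carotenoid oxygenase bco1l (2.44 ± 0.31), the retinoic acid binding gene crabp2b (0.91 ± 0.15) and the retinol dehydrogenase rdh10a (0.38 ± 0.09) rose, and the retinol carrier rbp4 fell (-0.92 ± 0.18).

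In the steroid hormone list 8 genes were tested and 1 was lower at each dose, the glucocorticoid-induced gene fkbp5 (-1.25 ± 0.11 at 50 µg/L), which is 12.5% of the list at each dose. Among 15 eicosanoid genes, 4 rose and 2 fell at 6 µg/L, 2 rose and 2 fell at 30 µg/L, and 2 rose and 1 fell at 50 µg/L (40%, 26.7% and 20%, the last 2 below the share of all tested genes). The cyclooxygenase gene ptgs1 and the phospholipase gene pla2g4aa rose at 50 µg/L (0.95 ± 0.11 and 0.81 ± 0.17), and ptgs2b fell (-1.2 ± 0.24).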

How the data were processed

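Whole zebrafish embryos in 4 dose groups of 3 libraries were compared. The deposited table gives, per gene, a read count and an FPKM value for each library. The tools listed in the submitters' processing notes are HISAT2 (version 2.0.1), HTSeq (0.6.1), cutadapt (1.9.1), FastQC (0.10.1) and DESeq2, with GRCz11 as genome build. No source used here gives the strand setting or annotation release. The deposited counts are whole reads with no normalization, and the deposited FPKM equals the count divided by exon length and counted reads (within 0.005 for all values checked).

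Counts of the 19821 genes with a mean deposited FPKM of at least 0.5 were fitted over all 12 libraries in edgeR 4.0.16 (R 4.3.3) with TMM scaling and a quasi-likelihood test, two-sided, with Benjamini-Hochberg adjustment and a threshold of 0.05; standard errors are the log2 fold change over the root of F. Levels are FPKM recomputed with TMM-scaled library sizes. The fit was tested on simulated data. Alternatives used DESeq2 1.42.0, limma 3.58.1 on log2 FPKM, other filters, scalings and thresholds, and left out each library in turn.

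Values are given for members with a swing or a steady change, the 5 largest rises and falls of each comparison, and a set of P450 genes by role. Other members that are named were chosen after their values were seen. Their calls were not followed under the alternatives or when single libraries were left out. Members and lists were chosen with earlier results of these data known.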

Additional observations from a re-analysis of the deposited data

How the results depend on the processing

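Counts of called or classed members were recomputed under each alternative and are given in the order of the comparisons. Requiring a mean FPKM of 2 left 13 calls at 6 µg/L, 17 at 30 µg/L, 13 at 50 µg/L, 9 at 30 against 6 µg/L, 8 by trend and 6 swings, from fewer members tested. Of all genes tested at that minimum, 16.6%, 34.9%, 43.4% and 17.1% were called in these comparisons and 33.5% by trend. The number of members tested at that minimum is not given here, so these counts do not show whether the share of members called fell. The share of all tested genes with a swing or a steady change was not counted under the alternatives. An adjusted p below 0.01 left 14, 17, 18, 9 and 8 calls in the 5 comparisons and 6 swings, and a log2 fold change of at least 1 left 13, 13, 16 and 8 calls in the first 4 of them and 5 swings. Of all tested genes, the first threshold called 5.2%, 15.1%, 23.7%, 6.74% and 3.56%, and the second 4.22%, 8.31%, 12.7% and 4.71%. Fitting only the 2 groups compared gave 10 calls at 6 µg/L, 13 at 30 µg/L, 23 at 30 against 6 µg/L and 23 at 50 against 30 µg/L. Those fits called 2.76%, 11.7%, 34% and 29.7% of all tested genes. With control replicate 3 as the only control there were 24 calls at 30 against 6 µg/L, 21 at 50 against 30 µg/L, 22 by trend and 7 steady members. In that setting the lone control is assumed to vary like the other groups, and the change of cyp1a at 30 µg/L turned to 0.15 and that of cyp26a1 to 0.026. Steady members numbered 8 with limma on log2(FPKM + 1), 8 with limma on log2(FPKM + 0.1) and 7 with scaling by library totals alone, which moved the median log2 fold change of all genes at 30 against 6 µg/L to -0.133. All other counts lay within 1.5 times those reported.

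Leaving out 1 library at a time gave 14 to 38 calls at 6 µg/L, 18 to 38 at 30 µg/L, 22 to 33 at 50 µg/L, 9 to 26 at 30 against 6 µg/L, 8 to 21 at 50 against 30 µg/L, 12 to 16 by trend, 4 to 8 steady members and 5 to 19 swings. The share called of all tested genes ran from 6.2% to 56.5%, 18.3% to 61.8% and 29.1% to 62.8% against control. Between neighbouring doses it ran from 8.31% to 36.1% and 4.3% to 24.9%, and by trend from 22.4% to 33.9%. Of 95 called results of the single genes that were followed, 68 kept their call without each library. The 112 results followed in all include these 95 and changes at 50 µg/L against control that were not called and so had no call to lose. Over all alternatives for the 112, 2383 of 2632 values kept their direction and side of the threshold, 238 lost a call, 9 gained one and 2 reversed. The cause of these differences was not tested.

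The sources used here do not say whether the replicate numbers pair the samples. Same-numbered samples of different groups had correlated deviations of -0.23 to 0.313 and differently numbered ones -0.359 to 0.284. With 3 libraries per group the deviations within a group depend on each other, so these overlapping ranges cannot exclude a pairing. With the replicate number as a block, 21, 25, 27, 15 and 15 members were called in the 5 comparisons, 14 by trend, 4 were steady and 11 had a swing, with cyp46a1.4 no longer among them. Of all tested genes, 15.2%, 32.3%, 40.4%, 15.4% and 8.27% were then called, and 28.3% by trend. Depth limits the members under 0.5 FPKM, and the 3 libraries per group limit the rest.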
